A study of Mus musculus with 6 samples.

Results

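The mitosis and spindle genes are 35 genes that encode G2/M cyclins, mitotic kinases, kinesins, kinetochore subunits and spindle proteins. They were chosen by name, and all 35 were found among the 23962 genes of the table. Their RNA was measured by total RNA sequencing of CD4 T cells from C57BL/6 mice, with 6 libraries and 1 library per group. The groups were naive CD4 T cells, freshly sorted natural regulatory T cells (fresh nTregs) and stimulated nTregs, each from wild type (WT) mice and from mice written YAP flox/flox, CD4-Cre+ (YAP cKO). Yap1 encodes YAP, the co-activator that the Hippo kinases restrain, and the CD4 promoter drives Cre from thymic development on, so the deletion is not restricted to nTregs. Cells came from lymph nodes and spleens, naive cells being CD4+ CD62L+ CD25- and nTregs being CD4+ CD25 high. Stimulated nTregs received plate-bound anti-CD3 and soluble anti-CD28, each at 2 µg/ml, with IL-2 at 100 U/ml, for 24 h by one label text and 48 h by another. The number of mice behind a library is not given in the sources used here.

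A cell that leaves quiescence copies its DNA and then, in G2, makes the cyclins and kinases that start mitosis. CDK1 with cyclin A and cyclin B drives entry, Polo and Aurora kinases build the spindle, kinesins move microtubules and chromosomes, and kinetochores tie chromosomes to the spindle under the watch of a checkpoint. The anaphase-promoting complex (APC/C) then ends mitosis by marking cyclin B and securin for destruction. Most of these genes are transcribed in G2 and M and repressed in resting cells by the DREAM complex, which binds the cell cycle genes homology region in their promoters. Naive T cells in lymphoid organs are mostly quiescent, a share of nTregs cycles in the body, and stimulation through the T cell receptor with CD28 and IL-2 drives nTregs into division.

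The unit is FPKM, a fragment count scaled by transcript length and by library, summed per gene. Foxp3, the lineage factor of regulatory T cells, was 2.98 FPKM in WT and 3.30 in cKO naive cells, 46.6 and 45.9 in the fresh pair and 56.9 and 57.8 in the stimulated pair. Yap1 was listed at 0 in the naive and fresh libraries and was 0.169 FPKM in WT and 0.235 in cKO stimulated nTregs, so the targeted gene was not lower in a library labelled cKO. Gene totals this far under 1 FPKM cannot show whether the deletion took place. Genotype directions thus rest on the column names. The FPKM sum went from 968819 in WT and 962710 in cKO naive cells to 837043 and 843746 in the fresh pair and 534179 and 595413 in the stimulated pair. Genes at 1 FPKM or more numbered 10201 to 10885 per library. One fragment on a 1 kb transcript was worth about 0.108 to 0.141 FPKM, which put the members at up to 347 fragments in naive cells and at 38.8 to 5463 in stimulated nTregs. Erythroid markers were all under 1 FPKM. With 1 library per group, genotype differences within a population have no test.

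As a group the members were lowest in naive cells and highest in stimulated nTregs in both genotypes. Their median was 0.771 FPKM in WT and 0.957 in cKO naive cells, 1.77 and 2.62 in the fresh pair, and 7.96 and 11.7 in the stimulated pair. Their sum followed the same order, with 65.5 and 70.7 FPKM, then 107 and 147, then 362 and 584. Of the 35 members, 15 in WT and 17 in cKO naive cells reached 1 FPKM, 24 and 34 did so in the fresh pair, and all 35 did in each stimulated library. In bulk RNA, a larger share of dividing cells and more mitotic RNA per cell cannot be told apart.

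**Figure D1:**
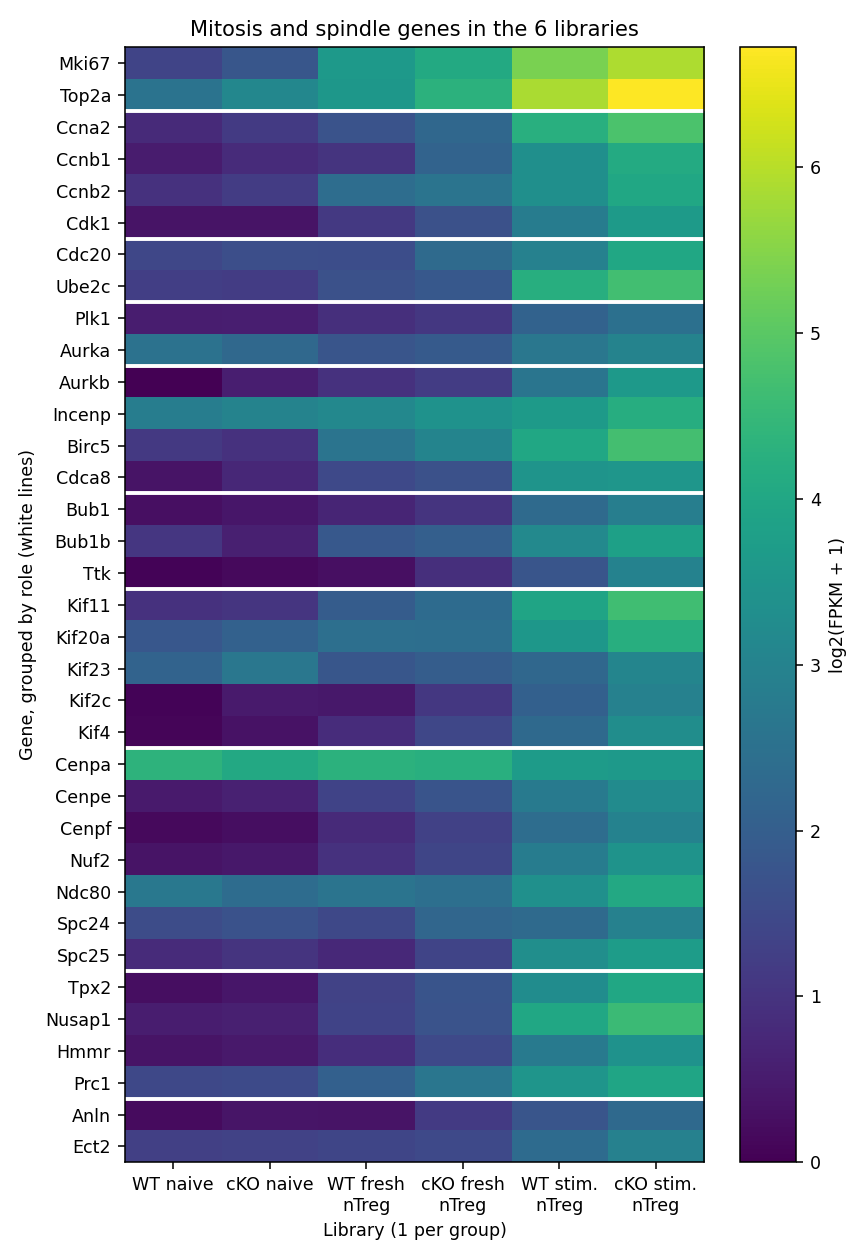
Level of each of the 35 genes (rows, grouped by role) in the 6 libraries (columns), as log2(FPKM + 1) by colour. Nearly every row brightens from naive to stimulated nTregs, while Cenpa, at 19.2 FPKM in WT naive cells, does not.

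The order of the members differed between naive and stimulated cells, with Top2a near the top in both. In WT naive cells the highest members were Cenpa, Incenp, Ndc80 and Top2a, and Cenpa alone held 29.3% of the member sum, against 22.1% in cKO naive cells. The share of Cenpa was 17.9% and 12.1% in the fresh pair and 3.27% and 1.95% in the stimulated pair. Mki67 and Top2a together held 9.87% of the member sum in WT and 14.2% in cKO naive cells, 20.5% and 23.7% in the fresh pair, and 27.0% and 28.0% in the stimulated pair. At the other end stood Aurkb, Kif2c and Ttk in WT naive cells at 0, 0.0493 and 0.0509 FPKM, and in cKO naive cells Ttk and Cenpf were the lowest at 0.120 and 0.190 FPKM.

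Promoters are printed for members that rose together with stimulation, to show which letters they share. RefSeq promoter windows (GRCm38.p6, 250 bases before to 50 after the start) were matched for 29 of the 35 members. Aurkb, Ccna2, Incenp, Kif20a, Spc24 and Tpx2 had none. The stretches below run 5′ to 3′ on the gene's own strand, outside the annotated gene, with capitals for the cell cycle homology region (TTTGAA or TTCGAA) and the CCAAT box on either strand. They belong to Spc25 (chr2:69206214-69206463, minus strand), Top2a (chr11:99024200-99024439, minus), Kif11 (chr19:37376132-37376381, plus) and Nuf2 (chr1:169531465-169531714, minus), the 4 members with the largest stimulation change among those whose 250 upstream bases overlap no annotated exon. Mki67 (chr7:135716451-135716629, minus) was added, after its values were seen, as the usual marker of proliferation.
Spc25: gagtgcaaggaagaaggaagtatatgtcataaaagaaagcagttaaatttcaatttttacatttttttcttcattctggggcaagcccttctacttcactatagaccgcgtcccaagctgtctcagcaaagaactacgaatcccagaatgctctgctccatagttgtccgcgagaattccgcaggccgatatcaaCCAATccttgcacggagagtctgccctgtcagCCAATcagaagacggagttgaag
Top2a: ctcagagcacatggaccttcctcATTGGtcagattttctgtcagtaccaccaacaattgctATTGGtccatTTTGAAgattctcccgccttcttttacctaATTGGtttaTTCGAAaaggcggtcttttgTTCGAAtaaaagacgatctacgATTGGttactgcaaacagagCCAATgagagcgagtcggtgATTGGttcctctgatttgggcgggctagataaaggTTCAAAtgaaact
Kif11: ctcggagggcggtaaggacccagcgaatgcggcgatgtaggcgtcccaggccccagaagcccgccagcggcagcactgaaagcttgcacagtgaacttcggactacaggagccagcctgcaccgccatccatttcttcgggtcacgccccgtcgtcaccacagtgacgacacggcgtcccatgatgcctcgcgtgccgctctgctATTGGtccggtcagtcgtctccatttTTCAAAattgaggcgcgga
Nuf2: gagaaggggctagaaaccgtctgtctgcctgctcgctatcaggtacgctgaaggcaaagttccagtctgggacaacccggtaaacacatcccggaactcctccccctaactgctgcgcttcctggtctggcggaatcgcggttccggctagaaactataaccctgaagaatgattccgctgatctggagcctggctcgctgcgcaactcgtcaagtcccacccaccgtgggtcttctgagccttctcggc
Mki67: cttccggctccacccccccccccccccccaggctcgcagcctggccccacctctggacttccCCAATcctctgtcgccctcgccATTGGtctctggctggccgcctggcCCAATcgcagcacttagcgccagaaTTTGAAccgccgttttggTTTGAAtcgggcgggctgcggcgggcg

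The Top2a stretch held 4 homology matches and 6 CCAAT boxes, Mki67 held 2 homology matches and 3 CCAAT boxes, and Kif11 held 1 of each within 50 bases of the start. The homology match of Spc25 lay downstream of the start and outside the stretch shown, and Nuf2 held neither motif. Over the window, 24 of 29 members (82.8%) held a homology match on either strand, against 21.7% of the 27025 genes with a promoter, and 22 had it from 50 bases before to 50 after the start. The 5 members without it were Birc5, Ccnb1, Cenpe, Nuf2 and Nusap1. CCAAT was present in 23 members (79.3%, against 41.1% of genes), and both motifs in 21 (72.4%, against 8.61%). The E2F letters TTCGCGC or TTGGCGC were present in 5 members (17.2%, against 4.47%). GGAATG, the core bound by TEAD factors, the DNA-binding partners of YAP, was present in 2 members, Nusap1 and Ube2c (6.90%, against 16.6%). Matches of different motifs shared bases in 4 of the 31 windows that the 29 members have between them. These are matches of letters in a window and no measure of binding.

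**Figure D2:**
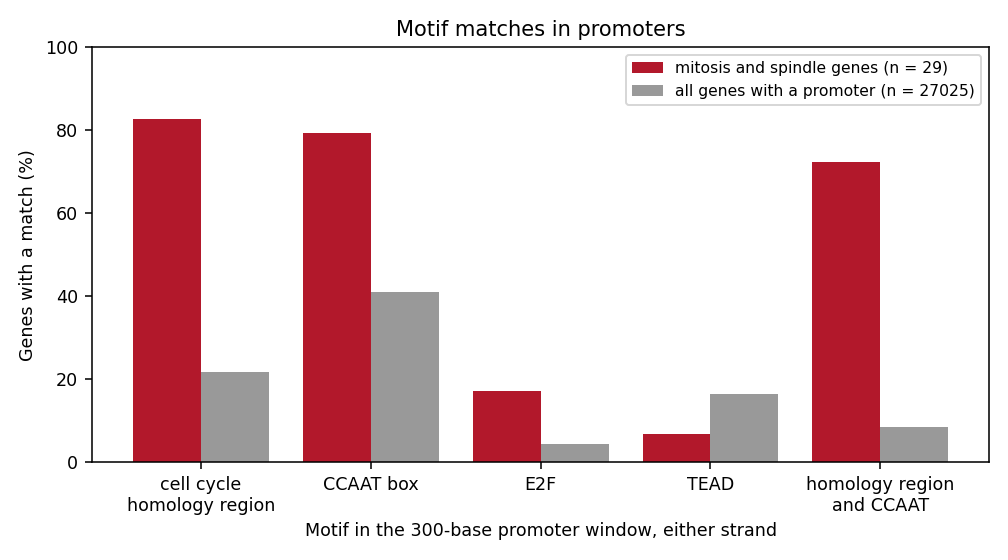
Share of genes (%) with a motif match on either strand of the 300-base promoter window, for the 29 members with a window (red) and all 27025 genes with one (grey). The homology region and the CCAAT box are present together in 72.4% of members and 8.61% of all genes.

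Stimulation raised nearly the whole group. In limma fitted to log2(FPKM + 1) over 11214 genes, with terms for population and genotype, 34 of the 35 members were higher in stimulated than in fresh nTregs and 1, Cenpa, was lower, at a Benjamini-Hochberg adjusted p under 0.05. Of all genes tested, 22.6% were called higher and 27.3% lower. The median change of the members was 1.64, against -0.05 for all genes, and their range was -0.63 to 2.76. All 35 members passed the filter of 1 FPKM in at least 2 libraries, Ttk only through the stimulated pair. The fit has 2 residual degrees of freedom, which are the differences of the genotype effect between populations. Its p-values rest on that spread, with no replicate libraries behind them, and not on the spread between mice.

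The proliferation marker and the DNA topology enzyme were the highest members after stimulation. Mki67 (GRCm38 chromosome 7, 135689784 to 135716450), which coats mitotic chromosomes, was 1.59 FPKM in WT and 2.48 in cKO naive cells, 11.2 and 15.9 in the fresh pair and 40.5 and 58.6 in the stimulated pair. Top2a (chromosome 11, 98992947 to 99024199), the topoisomerase that untangles sister chromatids, was 4.87 FPKM in WT and 7.57 in cKO naive cells, 10.8 and 19.0 in the fresh pair and 57.3 and 105 in the stimulated pair. For both genes the populations did not overlap, and the cKO library was the higher of each pair. The change from fresh to stimulated nTregs was 1.79 (SE 0.10) for Mki67 and 2.35 (SE 0.11) for Top2a on the log2(FPKM + 1) scale, with limma adjusted p of 0.00012 and 7.51e-05.

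The cyclins and CDK1 rose as a block of 4. Ccna2, the A-type cyclin of S phase and early mitosis, went from 0.735 (WT) and 1.20 (cKO) FPKM in naive cells to 2.28 and 3.75 in fresh nTregs and 17.8 and 27.1 after stimulation. Ccnb1 (chromosome 13, 100778739 to 100786486), the main B-type cyclin partner of CDK1, went from 0.422 (WT) and 0.766 (cKO) FPKM in naive cells to 1.02 and 3.38 in fresh nTregs and 9.24 and 16.3 after stimulation. Ccna2 was above Ccnb1 in each of the 6 libraries. Ccnb2, the B-type cyclin found at the Golgi, measured 0.946, 1.28, 4.33, 4.99, 9.20 and 14.9 FPKM in the order WT naive, cKO naive, WT fresh, cKO fresh, WT stimulated and cKO stimulated. Cdk1, the kinase itself, measured 0.289, 0.285, 1.16, 2.17, 6.03 and 11.7 FPKM in that order. Their changes with stimulation were 2.54, 2.16, 1.17 and 1.85, all called by limma, and Ccnb2 was the cyclin with the smallest.

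The APC/C activator and its ubiquitin-conjugating enzyme differed in size of change. Ube2c, which hands ubiquitin to the APC/C, was 1.37 FPKM in WT and 1.30 in cKO naive cells, 2.21 and 2.62 in the fresh pair and 17.7 and 24.9 in the stimulated pair, a change of 2.69 (SE 0.16, limma adjusted p 0.000149). Cdc20, which activates the APC/C at anaphase and is held back by the checkpoint, was 1.69 FPKM in WT and 2.04 in cKO naive cells, 2.00 and 4.03 in the fresh pair and 6.73 and 15.1 in the stimulated pair, a change of 1.52. For both genes each stimulated library was higher than all 4 others.

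Of Plk1 and the Aurora kinases, Aurora B moved most. Aurkb, the catalytic subunit of the chromosomal passenger complex, was 0 FPKM in WT and 0.491 in cKO naive cells, 0.932 and 1.29 in the fresh pair and 5.10 and 11.1 in the stimulated pair, with a change of 2.03. Aurka, the spindle pole kinase, was 4.78 FPKM in WT and 3.79 in cKO naive cells, 2.40 and 2.73 in the fresh pair and 5.33 and 6.99 in the stimulated pair, with a change of 1.00. For Aurka the stimulated pair was the highest and the fresh pair the lowest, with the naive pair between. Plk1, the Polo kinase of mitotic entry, was 0.446 FPKM in WT and 0.485 in cKO naive cells, 0.870 and 1.14 in the fresh pair and 3.36 and 4.63 in the stimulated pair, with a change of 1.31, and it remained among the low members after stimulation. All 3 changes were called by limma.

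Incenp rose least among the passenger subunits. Incenp, the scaffold that binds Aurora B, was 6.16 FPKM in WT and 7.05 in cKO naive cells, 7.77 and 9.84 in the fresh pair and 11.7 and 17.1 in the stimulated pair, the smallest rise of the group on the log2(FPKM + 1) scale at 0.63 (SE 0.12). Birc5 (survivin), which docks the complex at the centromere, was 1.17 FPKM in WT and 0.957 in cKO naive cells, 5.04 and 7.15 in the fresh pair and 15.1 and 25.3 in the stimulated pair, a change of 1.55. Cdca8 (borealin), its partner in docking, was 0.267 FPKM in WT and 0.678 in cKO naive cells, 1.79 and 2.20 in the fresh pair and 10.2 and 10.5 in the stimulated pair, a change of 1.93. In WT naive cells Incenp was thus at several FPKM while Aurkb was listed at 0 and Cdca8 stood at 0.267.

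The 3 checkpoint kinases rose from low levels. Bub1, which recruits checkpoint proteins to kinetochores, was 0.217 FPKM in WT and 0.316 in cKO naive cells, 0.623 and 1.03 in the fresh pair and 4.02 and 6.38 in the stimulated pair. Bub1b (BubR1), part of the inhibitor of CDC20, was 1.07 FPKM in WT and 0.501 in cKO naive cells, 2.64 and 3.11 in the fresh pair and 7.96 and 13.2 in the stimulated pair. Ttk (MPS1), which starts the checkpoint signal, was 0.0509 FPKM in WT and 0.120 in cKO naive cells, 0.203 and 0.858 in the fresh pair and 2.40 and 6.85 in the stimulated pair. The changes were 1.75, 1.54 and 1.79, and every stimulated library was higher than every fresh one.

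Among the kinesins, Kif11 changed most on the log2(FPKM + 1) scale, while the ratio of stimulated to fresh FPKM was larger for Kif2c (8.90 in WT and 6.03 in cKO) than for Kif11 (4.97 and 5.93). Kif11 (Eg5), the motor that pushes spindle poles apart, was 0.946 FPKM in WT and 1.06 in cKO naive cells, 2.88 and 4.06 in the fresh pair and 14.3 and 24.1 in the stimulated pair, a change of 2.15 (SE 0.17). Kif2c (MCAK), which depolymerizes microtubules at centromeres, measured 0.0493, 0.412, 0.357, 1.12, 3.17 and 6.73 FPKM and changed by 1.74. Kif4, a chromokinesin that also works at the midzone, measured 0.0570, 0.265, 0.822, 1.72, 3.89 and 8.87 FPKM and changed by 1.64. The cytokinesis kinesins had higher totals in naive cells than Kif11, Kif2c and Kif4. The Kif20a total can hold reads of Cdc23, whose opposite-strand exons overlap 29.3% of its exon bases. Kif20a (MKLP2) was 2.55 FPKM in WT and 3.22 in cKO naive cells, 4.45 and 4.41 in the fresh pair and 10.7 and 17.5 in the stimulated pair, a change of 1.44. Kif23 (MKLP1) was 3.42 FPKM in WT and 5.35 in cKO naive cells, 2.49 and 2.97 in the fresh pair and 3.70 and 7.37 in the stimulated pair, a change of 0.75, with its naive values above the fresh ones and the cKO naive value above WT stimulated.

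Cenpa set itself apart from the other centromere and kinetochore genes. Cenpa (chromosome 5, 30666877 to 30674837), the histone H3 variant that marks centromeres, was 19.2 FPKM in WT and 15.6 in cKO naive cells, 19.1 and 17.9 in the fresh pair and 11.9 and 11.4 in the stimulated pair. Naive and fresh libraries overlapped, and both stimulated libraries were lower than the other 4. The change was -0.63 (SE 0.10, limma adjusted p 0.00383). Scaling the libraries to an equal FPKM sum moved the median of all genes from -0.05 to 0.47, and there Cenpa stood at -0.09 (limma adjusted p 0.472). Relative to the median of all genes Cenpa was at -0.58 as reported and at -0.56 under that scaling. Its promoter window held a homology match and 2 CCAAT boxes, as most member windows held both motifs.

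The outer kinetochore complex of 4 NDC80 subunits was not measured at one level. Ndc80 was 5.42 FPKM in WT and 4.21 in cKO naive cells, 4.97 and 4.50 in the fresh pair and 9.44 and 15.5 in the stimulated pair. Nuf2, its direct partner, was 0.290 FPKM in WT and 0.343 in cKO naive cells, 0.930 and 1.62 in the fresh pair and 6.06 and 9.91 in the stimulated pair, well below Ndc80 in naive cells and within a factor of 2 after stimulation. Spc25 was 0.771 FPKM in WT and 1.03 in cKO naive cells, 0.709 and 1.59 in the fresh pair and 9.05 and 12.1 in the stimulated pair, and Spc24 was 1.98 FPKM in WT and 2.24 in cKO naive cells, 1.77 and 3.65 in the fresh pair and 3.99 and 6.78 in the stimulated pair. The changes with stimulation were 1.20 for Ndc80, 1.96 for Nuf2, 0.80 for Spc24 and 2.45 for Spc25, all called by limma. Cenpe, the kinesin of the kinetochore, changed by 1.43 and reached 5.76 and 8.40 FPKM, and Cenpf, a large kinetochore coat protein, changed by 1.64 and reached 4.26 and 6.94 FPKM.

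Spindle microtubule proteins held the largest rise of the group on the log2(FPKM + 1) scale. Nusap1, which bundles microtubules near chromosomes, was 0.464 FPKM in WT and 0.511 in cKO naive cells, 1.57 and 2.30 in the fresh pair and 15.1 and 23.0 in the stimulated pair, a change of 2.76 (SE 0.16, limma adjusted p 0.000161). Tpx2, the activator of Aurora A on the spindle, was 0.190 FPKM in WT and 0.329 in cKO naive cells, 1.52 and 2.35 in the fresh pair and 8.68 and 15.0 in the stimulated pair, a change of 2.10. Hmmr, a spindle pole protein, was 0.277 FPKM in WT and 0.380 in cKO naive cells, 0.832 and 1.79 in the fresh pair and 5.76 and 9.66 in the stimulated pair, a change of 1.91. In these 3 genes each fresh library was above both naive ones and below both stimulated ones. Prc1, the bundler of the midzone, was 1.72 FPKM in WT and 1.84 in cKO naive cells, 3.15 and 5.22 in the fresh pair and 10.3 and 14.4 in the stimulated pair, a change of 1.38. The cytokinesis scaffolds moved less, Anln (anillin) by 1.30 to 2.45 and 3.93 FPKM and Ect2, the exchange factor for RhoA, by 1.20 to 4.10 and 6.72 FPKM.

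Which library was left out mattered for 3 of the 35 stimulation calls. Incenp was lost without either fresh library (adjusted p up to 0.0577). Kif23 was lost without the cKO fresh or the cKO stimulated library (up to 0.128), and Spc24 without the WT fresh or the cKO stimulated library (up to 0.117). The other 32 members were called in each of the 6 fits that left out 1 library and kept them, although Ttk did not pass the filter without a stimulated library.

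Fresh nTregs carried more mitotic RNA than naive cells for 20 members. By limma, 20 of 35 were called higher in fresh nTregs and 0 lower, with a background of 16.5% higher and 14.8% lower. At an unadjusted p under 0.05 the counts were 25 higher and 2 lower, where 21.7% of all genes were higher. The median change was 0.77, against -0.02 for all genes. Mki67 had the largest on the log2(FPKM + 1) scale, 2.26, from 1.59 and 2.48 FPKM in naive cells to 11.2 and 15.9 in fresh nTregs, WT first. Birc5 followed with 1.77, then Ccnb2 with 1.42, Tpx2 with 1.21 and Kif11 with 1.15.

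All 4 cyclin and CDK1 genes, all 4 spindle microtubule genes and both of Mki67 and Top2a were called higher in fresh nTregs. The passenger complex had 3 of 4 called (all but Incenp), the kinetochore and centromere group 3 of 7 (Cenpe, Cenpf and Nuf2), the kinesins 2 of 5 (Kif11 and Kif4), the checkpoint kinases 1 of 3 (Bub1b), and the APC/C pair 1 of 2 (Ube2c). Neither Plk1 nor Aurka, and neither Anln nor Ect2, was called. Aurka stood at -0.56 (limma adjusted p 0.0524) and Kif23 at -0.51 (0.0754), the most negative values of the group. Ndc80 was -0.01, Cenpa 0.09, Spc25 0.15 and Ect2 0.15, none of them called.

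Only 9 of the 20 calls held in every fit that left out 1 library. Fewer than those 20 members were called without the cKO naive, the cKO fresh or the WT fresh library. The share of all genes called in those fits is not given here, so a loss particular to the members cannot be told from a general one. Cdk1, Ube2c, Bub1b, Kif4, Cenpf, Nuf2 and Hmmr were each lost without any 1 of those 3 libraries. Ccnb1 and Prc1 were lost without the cKO naive or the cKO fresh library, Nusap1 without the cKO fresh library, and Aurkb without either naive or the WT fresh library. With all 6 libraries none was called lower, but Aurka was called lower without the cKO naive library or without either stimulated library (limma adjusted p 0.0230 to 0.0317). Kif23 was called lower without either stimulated library (0.0270 and 0.0294). With only the fresh and naive libraries in the fit, both were called lower. B cell markers, 8 in the list, summed to 48.0 and 39.6 FPKM in the fresh pair and to 7.79 and 7.51 in the naive pair, mostly Cd74 and Cd79b, with Pax5 at 0 in those 4 libraries. Their part in the difference was not tested.

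**Figure D3:**
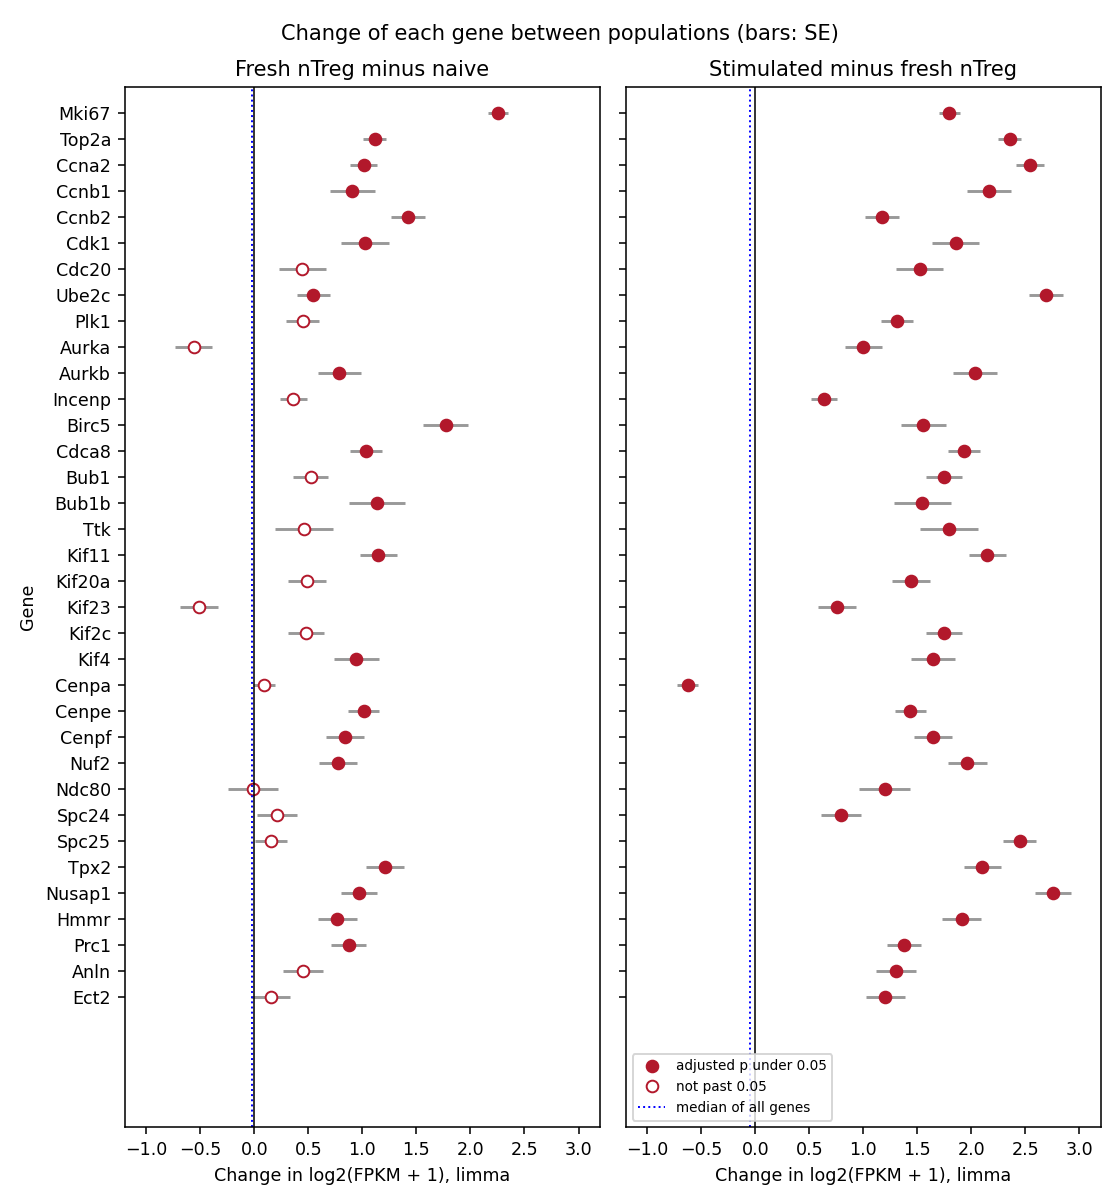
Change of each of the 35 genes on the log2(FPKM + 1) scale, fresh nTreg minus naive (left) and stimulated minus fresh nTreg (right), with limma standard errors as bars, filled points at an adjusted p under 0.05 and the median of all genes dotted. On the right 34 points lie above 0 and Cenpa below, while on the left 15 points are open.

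YAP cKO libraries had higher values than WT for most members, and 1 member passed the test across the 3 populations. Top2a was called higher in cKO by limma, with a change of 0.72 (SE 0.09, adjusted p 0.0427), against 0.259% of all genes called higher and 0.116% called lower. It was higher in cKO in 3 of 3 populations. The call was lost without either fresh library (adjusted p up to 0.207), and it was also lost with no filter on low values (0.330), without the intensity trend (0.101) and with gene sums over rows bearing a deposited symbol (0.0577). Of the other members, Mki67 had the lowest adjusted p, 0.113, at a change of 0.47, and Ccnb1 the largest change, 0.73 (adjusted p 0.206).

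The sign of the difference was nearly uniform. The fitted change was positive for 34 of 35 members, with Cenpa at -0.14, and its median was 0.39, against 0.01 for all genes. At an unadjusted p under 0.05, 25 members were higher and 0 lower, where 7.64% of all genes were higher. In 27 members the cKO library was higher in 3 of 3 populations, as in 19.6% of all genes, and in 1 member, Cenpa, it was lower in 3 of 3, as in 16.7%. The members share each library, so they are not independent observations of the genotype.

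In naive cells the differences were small and rested on few fragments. The cKO library was higher for 28 of 35 members (49.8% of all genes), with a median difference of 0.12. None was at 1.5-fold or more in either direction on the log2(FPKM + 1) scale (2.19% of all genes were at least 1.5-fold higher and 1.85% at least 1.5-fold lower). Members are counted at any level, while these shares are of genes at 1 FPKM or more in either library of the pair. Of the 35 members, 19 reached that level in naive cells, 34 in the fresh pair and 35 in the stimulated pair. Members and all genes are thus unlike sets in naive cells. With a pseudocount of 0.1 instead of 1, 10 members were at least 1.5-fold higher and 1 lower. The 95% interval of the cKO to WT ratio, which covers counting error only, lay above 1 for 6 members and below 1 for 2. Of all genes, 11.8% lay above 1 and 11.8% below. Among the 6, Aurkb, Kif2c and Kif4 were under 1 FPKM in both naive libraries, and genes that low are not in the shares of all genes. Top2a was higher by a ratio of 1.55-fold (interval 1.30 to 1.87), Mki67 by 1.55-fold (interval 1.23 to 1.95) and Kif23 by 1.56-fold (interval 1.20 to 2.07). Bub1b, at 1.07 and 0.501 FPKM, was lower at 0.467-fold (interval 0.236 to 0.887), and Cenpa, at 19.2 and 15.6, was lower at 0.813-fold (interval 0.666 to 0.990).

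In fresh nTregs 32 of 35 members were higher in cKO (50% of all genes), with a median of 0.41. On the log2(FPKM + 1) scale 9 were at least 1.5-fold higher (2.41% of all genes) and 0 at least 1.5-fold lower (1.45%). On that scale Ccnb1 was the 1 member at least 2-fold higher (0.634% of all genes). It stood at 1.02 and 3.38 FPKM, a plain FPKM ratio of 3.32-fold (interval 2.09 to 5.66). Other members passed 2-fold by the plain ratio alone, and the largest of these ratios came from low WT values. Anln stood at 0.276 and 1.19 FPKM, a ratio of 4.31-fold (interval 2.20 to 8.69), and Ttk at 0.203 and 0.858 FPKM, a ratio of 4.23-fold (interval 1.62 to 15.0). Kif2c stood at 0.357 and 1.12 FPKM, a ratio of 3.13-fold (interval 1.63 to 9.34). Its interval is built on fragments, and its total lay on transcripts of different length in WT and cKO, so the interval is not centred on that ratio. Cenpa, Ndc80 and Kif20a were the 3 members not higher in cKO, at log2 differences of -0.09, -0.12 and -0.01. The interval lay above 1 for 19 members (13.4% of all genes) and below 1 for 0 (13.7%). With a pseudocount of 0.1, 17 members were at least 1.5-fold higher and 7 at least 2-fold higher.

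After stimulation 34 of 35 members were higher in cKO (55.2% of all genes), with a median of 0.64, against 0.04 for all genes. On the log2(FPKM + 1) scale 21 members were at least 1.5-fold higher (5.16% of all genes), and 0 were at least 1.5-fold lower (2.92%). On that scale Ttk (2.40 and 6.85 FPKM), Cdc20 (6.73 and 15.1) and Kif4 (3.89 and 8.87) were at least 2-fold higher (1.19% of all genes). By the plain FPKM ratio Aurkb (2.18-fold) and Kif2c (2.12-fold) also passed 2-fold. Top2a had a ratio of 1.82-fold (interval 1.73 to 1.92), Mki67 of 1.45-fold (interval 1.38 to 1.52), Ccna2 of 1.52-fold (interval 1.34 to 1.73) and Cdk1 of 1.94-fold (interval 1.63 to 2.31). Cdca8, at 10.2 and 10.5 FPKM, and Cenpa, at 11.9 and 11.4, were the members nearest to no difference. The interval lay above 1 for 31 members (25.3% of all genes) and below 1 for 0 (16.6%). With an equal FPKM sum, 10 members were at least 1.5-fold higher, and the median was 0.51 with all genes at -0.11.

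By role, the median difference after stimulation was largest for the kinesins (0.83) and the APC/C pair (0.76), and smallest for Plk1 and Aurka (0.35). The cyclins and CDK1 stood at 0.70, Mki67 and Top2a at 0.69, the checkpoint kinases at 0.66, the spindle microtubule proteins at 0.62, the passenger complex at 0.61, the centromere and kinetochore genes at 0.59 and the cytokinesis scaffolds at 0.56. In fresh nTregs the same medians ran from 0.16 for Plk1 and Aurka to 0.62 for Mki67 and Top2a. In naive cells they ran from -0.12 for Plk1 and Aurka to 0.48 for Mki67 and Top2a.

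**Figure D4:**
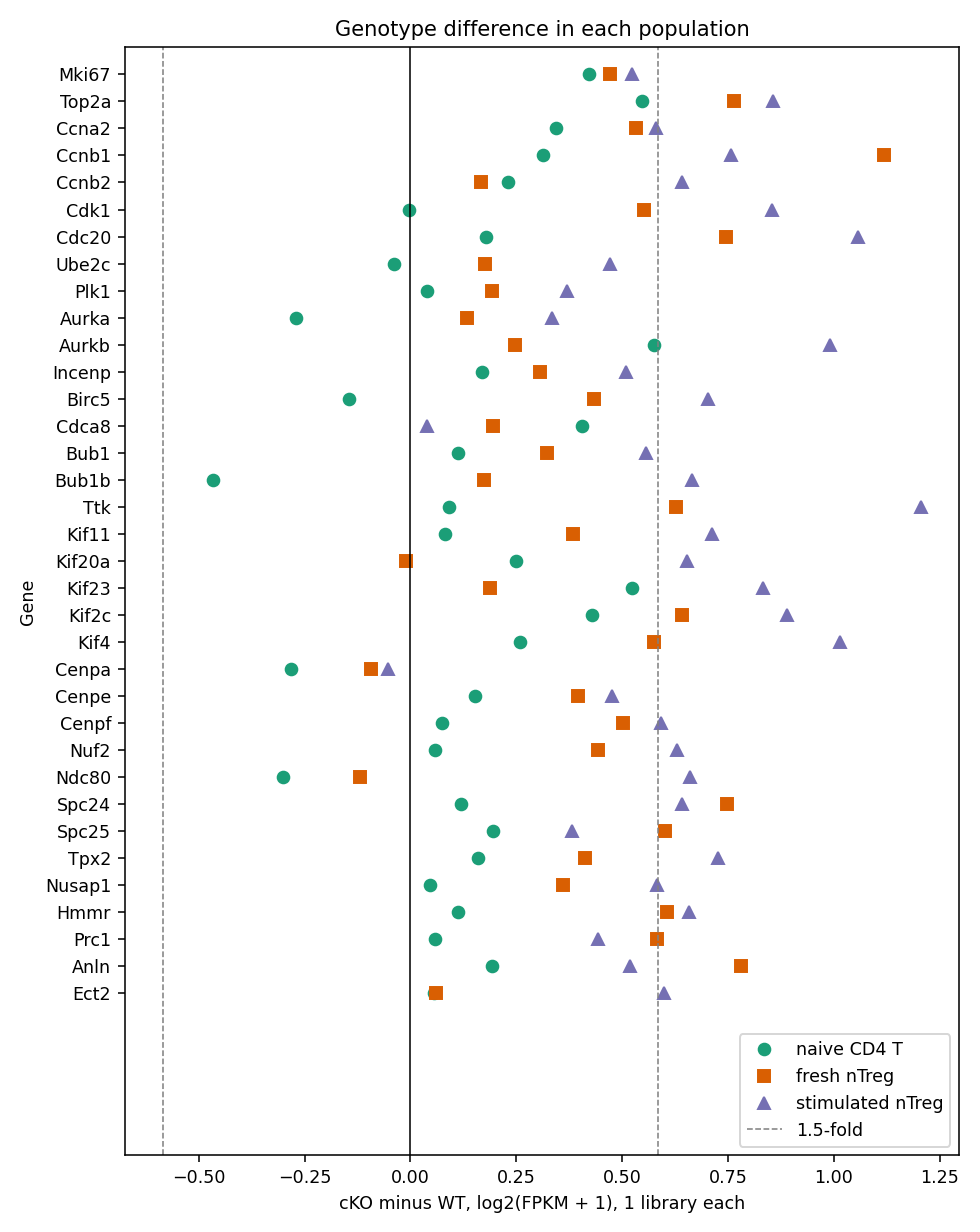
Difference between the cKO and the WT library of each population, in log2(FPKM + 1), for each of the 35 genes, with 1 library behind each value and dashed lines at 1.5-fold. Most triangles (stimulated nTregs) lie to the right of the squares (fresh nTregs) and circles (naive cells), and Cenpa lies left of 0 in all 3.

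The 2 libraries of the stimulated pair differed in other respects as well. One fragment on 1 kb was worth 0.141 FPKM in WT and 0.108 in cKO. The 8 NK and cytotoxic markers summed to 24.4 FPKM in WT and 68.7 in cKO stimulated nTregs, to 21.0 and 32.9 in the fresh pair, and to 22.9 and 14.1 in the naive pair. Nkg7 made up most of it after stimulation, at 19.9 and 63.7 FPKM, while Ncr1 was at or below 0.104 in the stimulated pair and Klra4 was at 0 in all 6 libraries. The part of these values in the differences of the mitosis genes was not tested.

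On the log2(FPKM + 1) scale the response to stimulation was larger in cKO for most members, as values without a test. For some of them the direction depended on that scale. The cKO change from fresh to stimulated exceeded the WT change in 29 of 35 members (55.2% of all genes), with a median difference of 0.22, against 0.04 for all genes. It was at least 1.5-fold larger in 4 members (4.61% of all genes) and at least 1.5-fold smaller in 0 (3.88%). These were Ndc80 (1.59 in cKO against 0.81 in WT), Aurkb (2.40 against 1.66), Kif20a (1.77 against 1.11) and Kif23 (1.08 against 0.43). Ccnb1 had the most negative difference, -0.36, its fresh value being 3.38 FPKM in cKO and 1.02 in WT. By the plain ratio of stimulated to fresh FPKM, the rise was larger in WT for Ccna2, Bub1, Ttk, Kif2c, Cenpe, Cenpf, Nuf2 and Hmmr. These members are among the 29. The plain ratio was also larger in WT for Ccnb1, Cdca8, Spc24, Spc25, Prc1 and Anln, as on the log2(FPKM + 1) scale. Cenpa is counted in the 29 because it fell less in cKO. The share of all genes by the plain ratio is not given here. With a pseudocount of 0.1 the median difference was 0.09, against 0.04 for all genes, with 3 members at least 1.5-fold lower. With an equal FPKM sum it was 0.10, against -0.10 for all genes.

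Only gene totals were compared. The table lists 53 transcripts of the 35 members, and the share of a gene's total given to each transcript differed between libraries. For Prc1, whose total was 3.15 and 5.22 FPKM in fresh nTregs, the transcript that bears the deposited symbol held 27.0% of the total in WT and 80.2% in cKO. Summed by deposited symbol alone, Prc1 would stand at 0.850 and 4.19 FPKM there. Kif20a, Ect2, Tpx2, Kif2c and Ttk shifted likewise. Exons on the opposite strand overlap 29.3% of the exon bases of Kif20a (with Cdc23), 22.8% of Ube2c (with Tnnc2), 15.1% of Kif4 (with Pdzd11), 12.5% of Ccna2 (with Exosc9) and 11.1% of Prc1 (with Rccd1). A small nucleolar RNA gene covers 1.35% of the exon bases of Top2a on the same strand. The libraries were stranded, but whether counting used the strand is not given in the sources used here, so these totals can hold reads of the partner.

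Other genes of cell division gave mixed counts with stimulation, to be read against 22.6% of all genes called higher and 27.3% lower. Of 54 other mitosis genes in the fit, 47 were called higher and 2 lower with stimulation, with a median of 1.18. The lower pair were Pttg1 (securin), at 42.3 and 34.6 FPKM in fresh and 27.2 and 19.9 in stimulated nTregs, and Cdc25b, the phosphatase that activates CDK1, at 19.4 and 24.7 and 10.5 and 15.6. Gtse1 (2.11) and Cep55 (2.10), an abscission protein, rose most. Of 36 DNA replication genes 30 were called higher and 1, the licensing factor Cdt1, lower (-0.85), with a median of 0.98. The largest rises were those of Mcm10 (2.11) and Rrm2 (1.95), and Pcna, at 231 and 234 and 212 and 254 FPKM, was -0.01 and not called.

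Of 8 condensin subunits 5 were called higher and 1 lower, with a median of 0.96. Ncapg2 (1.70) and Ncapg (1.65) rose, Ncapd3 was at -0.02 and not called, and Smc4 fell from 391 and 354 to 231 and 182 FPKM. Centromere and CCAN genes numbered 10 called higher and 2 lower of 20, with a median of 0.63. Oip5 (1.72) and Cenph (1.71) rose most. The 2 lower ones were Cenpl (-1.01) and Hjurp (-0.45), the chaperone that loads CENP-A. APC/C subunits and inhibitors were called higher in 3 and lower in 2 of 17 (17.6% and 11.8%, below the shares of all genes), with a median of 0.12. The APC/C inhibitor Fbxo5 (EMI1) rose by 1.43 and the subunit Anapc15 by 0.53, while the ubiquitin-conjugating enzyme Ube2s fell by 0.47 and the subunit Anapc16 by 0.31.

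Regulators of mitotic transcription were called higher in 8 and lower in 2 of 21, with a median of 0.16. Foxm1, which activates G2/M genes, was 0.710 FPKM in WT and 1.12 in cKO naive cells, 0.791 and 1.13 in the fresh pair and 3.13 and 3.84 in the stimulated pair, and Mybl2 (B-MYB), which joins the MuvB core of DREAM in cycling cells, was 0.696 FPKM in WT and 0.806 in cKO naive cells, 0.441 and 1.37 in the fresh pair and 1.93 and 4.07 in the stimulated pair. E2f8, a repressor of the E2F family, rose by 1.63 and Tfdp1, the dimer partner of E2F factors, by 1.28. E2f2 (-1.08) and Rbl2 (-0.83), which encodes the p130 subunit of DREAM, were the 2 called lower. Rbl2 was 31.7 FPKM in WT and 28.9 in cKO naive cells, 50.6 and 59.5 in the fresh pair and 31.9 and 28.9 in the stimulated pair.

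Between fresh nTregs and naive cells, where 16.5% of all genes were called higher and 14.8% lower, 16 of 54 other mitosis genes were called higher and 1 lower, with a median of 0.35. Racgap1 (1.22), the partner of Kif23 in the centralspindlin complex, and the spindle kinesin Kif15 (1.15) were the highest. Mad1l1 (-0.45), which encodes the checkpoint protein MAD1, was called lower, and Gtse1 (-0.39) was next lowest and not called. DNA replication genes were called higher in 7 of 36 (19.4%, near the share of all genes) and lower in 1, with a median of 0.21. Thymidine kinase Tk1 (1.76) and Uhrf1 (1.36), which reads hemimethylated DNA, were highest, Cdt1 was called lower (-0.95), and Mcm2 (-0.35) was not called.

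Condensin subunits were called higher in 4 of 8 and lower in 1, with a median of 0.53. Ncapg2 (1.06) and Ncapg (0.97) were highest, Ncapd3 was called lower (-0.52), and Ncaph2 (-0.25) was not called. Centromere genes were called higher in 3 of 20 (15.0%, near the share of all genes) and lower in 2, with a median of 0.16. Cenph was called higher (0.65), Cenpm (0.55) was not called, and Cenpt (-0.79) and Hjurp (-0.45) were called lower. APC/C genes were called higher in 0 of 17, with 1 higher at an unadjusted p under 0.05, and lower in 4, with a median of -0.11. Anapc13 (0.32) and Anapc4 (0.18) were highest and not called, and Fbxo5 (-0.69) and Ube2s (-0.66) were called lower. Regulators were called higher in 5 of 21 and lower in 1, with a median of 0.08. Rbl2 (0.84) and E2f3 (0.83) were called higher, Nfyc (-0.32) was called lower, and E2f5 (-0.31) was not called.

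Between genotypes, 0 of the 156 genes of these 6 lists were called by limma, where the member list had 1. Of all genes, 0.259% were called higher and 0.116% lower. At an unadjusted p under 0.05 the genes of these lists numbered 47 higher and 3 lower, where 7.64% of all genes were higher. The medians were 0.27 for the other mitosis genes, 0.26 for replication, 0.22 for condensin, 0.12 for centromere, 0.03 for APC/C genes and 0.09 for regulators. Racgap1 had the largest change among the other mitosis genes, 0.65 (limma adjusted p 0.112), at 19.1 and 36.2 FPKM after stimulation, followed by Cep55 at 0.61. Pttg1 had the most negative, -0.46 (limma adjusted p 0.158), and Sgo1 was at -0.0041. The highest and lowest of the other lists, none of them called, were Uhrf1 (0.56), Chaf1a (0.53) and Tyms (-0.014) for replication, and Ncaph (0.47), Ncapg (0.41), Ncapd3 (-0.065) and Smc4 (-0.24) for condensin. For centromere genes they were Cenps (0.47), Cenpm (0.44), Cenpq (-0.058) and Hjurp (-0.079), and for the APC/C they were Anapc15 (0.31), Anapc2 (0.20), Fbxo5 (-0.017) and Anapc16 (-0.057). For regulators they were E2f2 (0.56), Mybl2 (0.53), E2f5 (-0.15) and Nfya (-0.46).

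**Figure D5:**
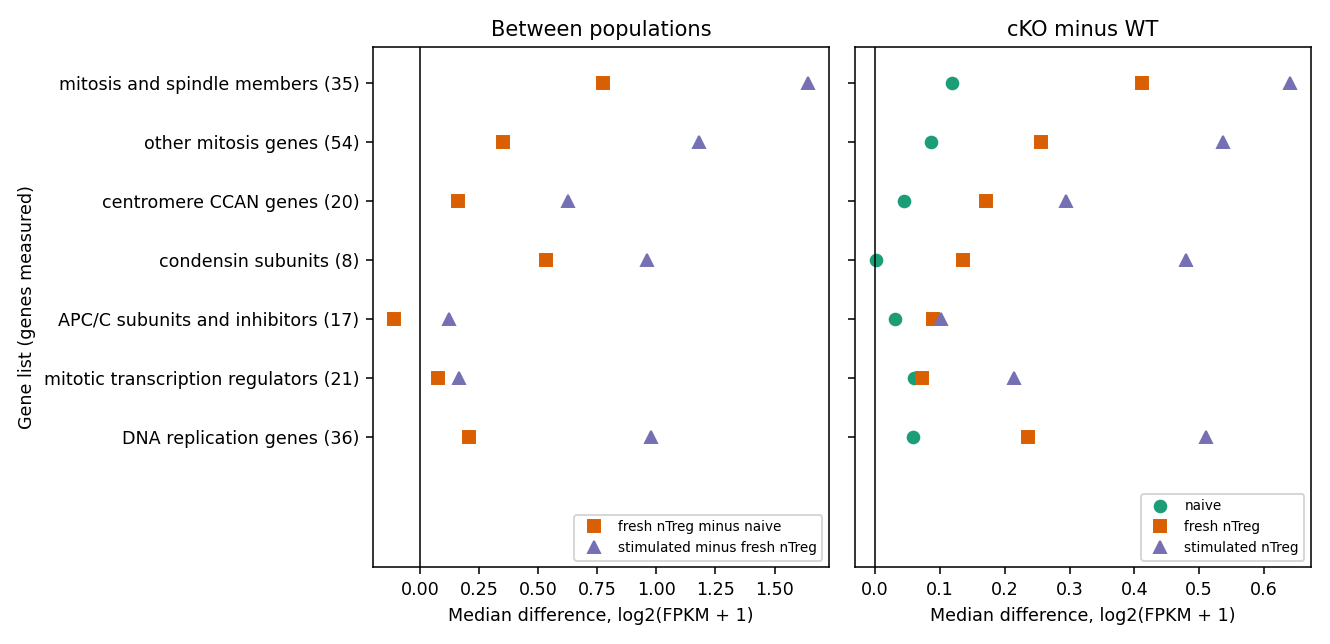
Median difference of each gene list on the log2(FPKM + 1) scale, between populations (left) and between genotypes within each population (right), with the number of genes measured in brackets. The 35 mitosis and spindle genes have the largest medians with stimulation (1.64) and the APC/C list the smallest (0.12).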

How the data were processed

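The authors sequenced ribosome-depleted total RNA as stranded libraries, from 322 ng of RNA with 12 PCR cycles, per the labels' protocols. Per the submitters' processing notes, FastQC, TopHat, Cuffdiff and Cuffnorm were used with mm10, without versions. The authors' deposited table gives FPKM per RefSeq transcript, scaled across the 6 libraries, per the file headers. FPKM depends on the other RNA in a library and holds no counts, so a count test was not used.

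The 32860 rows held 32547 transcripts, of which 165 in several rows had identical values and were used once. Transcripts were named by RefSeq accession (GRCm38.p6, 32101 of them), then by deposited symbol (397), and 49 had no name. FPKM was summed per gene. Of the 53 member transcripts, 4 have no deposited symbol. Value columns with the abbreviation YKP were read as YAP cKO by elimination.

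limma 3.58.1 (R 4.3.3) was fitted to log2(FPKM + 1) over genes at 1 FPKM or more in at least 2 of 6 libraries, with terms for population and genotype, an intensity trend, and 2 residual and 4.03 prior degrees of freedom. An adjusted p under 0.05 was called. Fold changes on this scale understate those of low genes. The fit code was run on simulated data with the same genotype effect in each population. Such data cannot show how the fit behaves where the effect differs between populations. Depth per library was estimated from the spacing of low values in single-transcript genes over 3000 nt, of which 61.1% to 74.5% lay within 0.1 fragment of a whole number. Intervals are exact binomial at 95% and hold counting error alone, as PCR duplicates carry no mark. Their shares over all genes are of genes at 1 FPKM in either library of a pair with a known length for each transcript. Motifs were searched in RefSeq promoter windows of 300 bases. Gene positions are from RefSeq (GRCm38.p6) and exon overlaps from GENCODE M21.

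All 35 members are named, and of each other list the 2 highest and 2 lowest per comparison, with Foxm1 and Mybl2 added after their values were seen. One gene under this rule is not reported here. Promoters were to be those of the 4 members with the largest stimulation change, and were restricted to entries in the table with no exon upstream. The members and lists were chosen with earlier results of these data known. Alternatives were the pseudocount, the filter, scaling, the trend, leaving out each library, fewer populations and, chosen after seeing the data, deposited symbols.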

Additional observations from a re-analysis of the deposited data

Results flagged for a closer look

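For 7 members the difference between the cKO and the WT library had opposite signs in different populations. These differences were not tested, since each population has 1 library per genotype. Values are cKO minus WT in log2(FPKM + 1), in the order naive cells, fresh nTregs, stimulated nTregs, followed by the span between the highest and the lowest. Bub1b was -0.47, 0.17 and 0.66, a span of 1.13. Ndc80 was -0.30, -0.12 and 0.66, a span of 0.962. Cdk1 was -0.004, 0.55 and 0.85, a span of 0.857. Birc5 was -0.15, 0.43 and 0.70, a span of 0.848. Kif20a was 0.25, -0.01 and 0.65, a span of 0.662. Aurka was -0.27, 0.13 and 0.34, a span of 0.605. Ube2c was -0.04, 0.18 and 0.47, a span of 0.511. In all 7 the stimulated value was the highest, and in 6 the naive value was the lowest, Kif20a being the exception. The naive values of Cdk1, Ube2c and Birc5 stood on 9.36 to 17.3 fragments, and their counting intervals span 1, as do those of Aurka and Ndc80, while that of Bub1b lies below 1. For Birc5 the naive sign also rests on the split between transcripts. Its longer transcript held 17.3% of the FPKM in WT and 46.9% in cKO naive cells.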

How the results depend on the processing

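Scaling to an equal FPKM sum moved the median of all genes with stimulation from -0.05 to 0.47, so that 86.8% of called genes were higher, against 45.2% as reported (6725 higher and 1020 lower, against 2531 and 3063). Members called lower with stimulation then numbered 0, 1.5-fold members after stimulation 10 and 2-fold ones 1, and the response difference had 2 members at 1.5-fold with a median of 0.10. For fresh nTregs against naive cells that scaling gave 80.6% of called genes higher, against 52.8%, and Ndc80 stood at 0.15. A pseudocount of 0.1 gave, in naive cells, 10 members at least 1.5-fold higher, 4 at least 2-fold higher, 1 at least 1.5-fold lower and a median of 0.33. In fresh nTregs it gave 17 and 7, after stimulation 5 at least 2-fold higher, and in the response difference 3 at least 1.5-fold lower with a median of 0.089. For fresh nTregs against naive cells its median was 1.54, with 1 member called lower, and Bub1b between genotypes was -0.00475. With no filter 0 members were called between genotypes and 10 were higher in fresh nTregs than in naive cells, and without the trend 0 were called between genotypes. An FPKM minimum of 5 left 3 of 5 members higher in naive cells and 5 of 6 in fresh nTregs, with 1 at 1.5-fold and 0 at 2-fold. Deposited symbols alone gave 0 members called between genotypes, 1 at 1.5-fold in naive cells, 3 at 2-fold in fresh nTregs and 1 at 2-fold in the response difference, and Ttk between fresh and naive cells was -0.11. Using only the fresh and naive libraries, 2 of 25 members were called lower. For calls under alternatives other than scaling, the share of all genes called is not given here. Leaving out 1 library at a time gave 0 to 1 members called between genotypes, and 10 to 23 called higher and 0 to 2 lower between fresh and naive cells. Between genotypes Aurka ranged from -0.068 to 0.23, Bub1b from -0.15 to 0.42 and Ndc80 from -0.21 to 0.27, and between fresh and naive cells Ndc80 from -0.30 to 0.27, Cenpa from -0.016 to 0.19, Spc24 from -0.079 to 0.50 and Spc25 from -0.0044 to 0.31. The cause was not tested. The remaining library of that population is then fitted exactly, so either library of a pair gives the same genotype estimate, and the lone library is assumed to vary like the others. Of the single-member values under the other alternatives, 925 kept their direction and their side of the threshold, 14 gained a call, 15 lost one and 3 reversed, and 7 differences between genotypes within fresh nTregs, which have no test, moved by more than 1.5 times. The labels give no replicate numbers, so no replicate block could be added, and the genotype term already compares cKO with WT within each population. In naive cells 15 (WT) and 17 (cKO) of 35 members reached 1 FPKM, and the others stand on few fragments, which limits that comparison.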
